A study of Mus musculus with 12 samples.

Results

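The 40 genes described here encode the core machinery of autophagy. They were chosen by name from its textbook steps and not by their measured values, though earlier results of these data were known. Of the 40, 39 had a probe set on the array that names a single gene, out of 19938 such genes, and 38 lay above a filter on low values that 14993 genes passed. Optn, a cargo receptor, had no probe set naming it alone, and Atg4c, an Atg4 protease, lay below the filter at a mean log2 value of 4.61 ± 0.20 (SD, n = 6) in wild type and 4.69 ± 0.23 (SD, n = 6) in Zbtb32-/-.

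RNA was taken from antigen-specific bone marrow plasma cells of mice and hybridised to Affymetrix arrays, with 6 arrays of Zbtb32 +/+ (wild type) and 6 of Zbtb32-/- cells that the series calls biological replicates. In both groups the cells descended from CD45.2 splenocytes of donors immune to NP-CGG, a hapten on chicken gamma globulin. Recipient mice were CD45.1, and the transferred cells met NP-CGG again there. Bone marrow was sorted 7 days later for CD138+ NP+ CD45.2+ cells that lacked B220, CD45.1 and the myeloid proteins Ly6g and CD11b. The transferred splenocytes were Zbtb32-/- as a whole and not only in B cells, and the number of animals behind an array, their age and their sex were not given in the sources used here.

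Zbtb32 is a BTB zinc finger repressor of transcription that limits recall antibody responses. Autophagy encloses cytoplasm in a double membrane, the phagophore, and delivers it to the lysosome. A kinase complex built on Ulk1 starts the process, a lipid kinase complex with Becn1 marks the membrane, and conjugation enzymes attach the Atg8 family proteins LC3 and GABARAP to it, where cargo receptors bind. Plasma cells carry a large load of secretory protein in the endoplasmic reticulum, and loss of Atg5 in B cells is known to reduce long-lived plasma cells.

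The values are log2 intensities after robust multi-array averaging (RMA), so a difference of 1 is a 2-fold change. They ran from 2.33 to 14.33, with array medians between 6.28 and 6.43, and pairs of arrays correlated at r = 0.914 to 0.984 across probe sets. Levels of different genes are not compared, since each probe set has its own response. The plasma cell markers of highest mean, Jchain and Xbp1, averaged 13.65 and 13.02, and the lowest of that list, Cd28, averaged 8.39. Neutrophil markers, of cells the sort was meant to remove, were also measured. Those of highest mean, S100a9 and Ngp, averaged 12.55 and 12.25, and the lowest, Ly6g, averaged 7.73. These values do not give the share of either cell type. Zbtb32 itself was 6.67 ± 0.16 (SD, n = 6) in wild type and 6.56 ± 0.10 (SD, n = 6) in Zbtb32-/-, which does not check the labels because the deleted part of the gene was not given in the sources used here. In sorted bulk RNA, fewer cells of a type and less RNA per cell cannot be told apart in any value below.

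The 250 bases upstream of the start of transcription are shown for 6 members. The first 4 are the members that passed the test between the arrays of replicates 4 to 6 and those of replicates 1 to 3, and Atg7 and Ulk2 are members that followed the markers of other cell types. Sequences are from RefSeq on build GRCm38.p6, read 5′ to 3′ on the strand of the gene. Capitals mark a match, on either strand, to the E-box CACGTG, the motif that Tfeb and related factors bind, or to the antioxidant response element TGACNNNGC.

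Atg13 promoter, chr2:91710593-91710842, - strand: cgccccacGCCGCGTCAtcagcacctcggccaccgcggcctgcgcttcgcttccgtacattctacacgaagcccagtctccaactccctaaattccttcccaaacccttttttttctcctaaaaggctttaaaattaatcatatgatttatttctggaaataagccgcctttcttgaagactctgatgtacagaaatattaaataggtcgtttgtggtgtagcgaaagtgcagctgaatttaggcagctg

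Atg4d promoter, chr9:21265035-21265284, + strand: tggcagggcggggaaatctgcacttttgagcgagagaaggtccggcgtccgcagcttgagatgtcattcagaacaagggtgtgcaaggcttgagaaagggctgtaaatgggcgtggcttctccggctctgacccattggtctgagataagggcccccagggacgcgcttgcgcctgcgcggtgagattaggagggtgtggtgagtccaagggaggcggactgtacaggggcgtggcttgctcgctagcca

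Atg5 promoter, chr10:44268089-44268338, + strand: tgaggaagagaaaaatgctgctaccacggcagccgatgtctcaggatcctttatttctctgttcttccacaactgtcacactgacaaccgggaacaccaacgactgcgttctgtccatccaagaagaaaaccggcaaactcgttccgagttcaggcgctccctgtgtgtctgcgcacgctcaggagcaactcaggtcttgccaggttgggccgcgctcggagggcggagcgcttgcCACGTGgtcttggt

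Sqstm1 promoter, chr11:50210821-50211070, - strand: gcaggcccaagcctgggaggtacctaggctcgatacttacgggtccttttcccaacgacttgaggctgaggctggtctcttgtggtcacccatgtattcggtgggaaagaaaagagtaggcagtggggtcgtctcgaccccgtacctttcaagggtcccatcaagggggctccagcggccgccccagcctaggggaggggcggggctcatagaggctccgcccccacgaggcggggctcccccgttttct

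Atg7 promoter, chr6:114670846-114671095, + strand: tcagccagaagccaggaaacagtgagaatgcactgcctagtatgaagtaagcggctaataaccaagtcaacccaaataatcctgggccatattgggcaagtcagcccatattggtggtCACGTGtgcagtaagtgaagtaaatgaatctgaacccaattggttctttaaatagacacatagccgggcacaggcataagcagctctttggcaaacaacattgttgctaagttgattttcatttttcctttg

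Ulk2 promoter, chr11:61855093-61855342, - strand: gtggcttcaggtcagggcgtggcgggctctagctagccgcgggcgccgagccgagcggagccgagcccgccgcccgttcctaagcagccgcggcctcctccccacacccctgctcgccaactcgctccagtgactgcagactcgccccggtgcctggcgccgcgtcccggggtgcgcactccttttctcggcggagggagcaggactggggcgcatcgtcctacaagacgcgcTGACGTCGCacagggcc

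Over the 33 members with an entry, which have 39 such windows, the E-box lay in 4 windows, those of Atg3, Atg5, Atg7 and Bnip3. That is 10.3% of the members' windows, against 6.02% of 32851 windows of all genes. The antioxidant response element lay in 3, those of Atg13, Ulk2 and 1 of the windows of Tax1bp1, which is 7.69% against 10.2% of all windows. The FoxO motif GTAAACA, searched on both strands, lay in none of the members' windows and in 3.17% of all windows. Of the 4 members lower in replicates 4 to 6, Atg5 had the E-box, Atg13 had the antioxidant response element, and Atg4d and Sqstm1 had none of the 3 motifs in this window. These are matches of letters and not measured binding sites.

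The first comparison asked whether the autophagy genes of recall plasma cells differ when Zbtb32 is absent. None of the 38 tested members passed, with limma adjusted p-values from 0.933 to 0.999, beside 0% of all 14993 genes. At an unadjusted p under 0.05, 1 member was called, Atg4a, beside 4.28% of all genes. This fit left out the replicate sets described below, a split chosen from these same data. With the sets in the fit as a block, 4 members had an unadjusted limma p under 0.05, beside 959 of all genes. None passed after adjustment, with a smallest limma adjusted p of 0.76 over all genes. Members were split between the directions: 21 of 38 (55.3%) had a higher mean in Zbtb32-/-, against 52.9% of all genes, and the median difference was 0.01 both over the members and over all genes. No member had genotypes whose arrays did not overlap, a pattern seen for 0.153% of all genes.

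The intervals set how large a difference the arrays leave room for. The 95% interval of the genotype difference lay within 2-fold in either direction for 37 of the 38 members, Atg4a being the exception, and within 1.5-fold for 28. These counts hold only for the probe set of highest mean. The other probe set of Gabarapl2 gave a larger difference, 0.57 (unadjusted limma p of 0.139), with an SD of 1.00 in wild type. The margin on either side of the difference had a median of 0.35 over the members and 0.31 over all genes. The SD over the 12 arrays ran from 0.055 for Gabarap to 0.76 for Atg4a, with a median of 0.32 over the members and 0.25 over all genes. The labels do not say that the replicates came from separate animals, so the p-values measure the spread between these arrays.

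**Figure D1:**
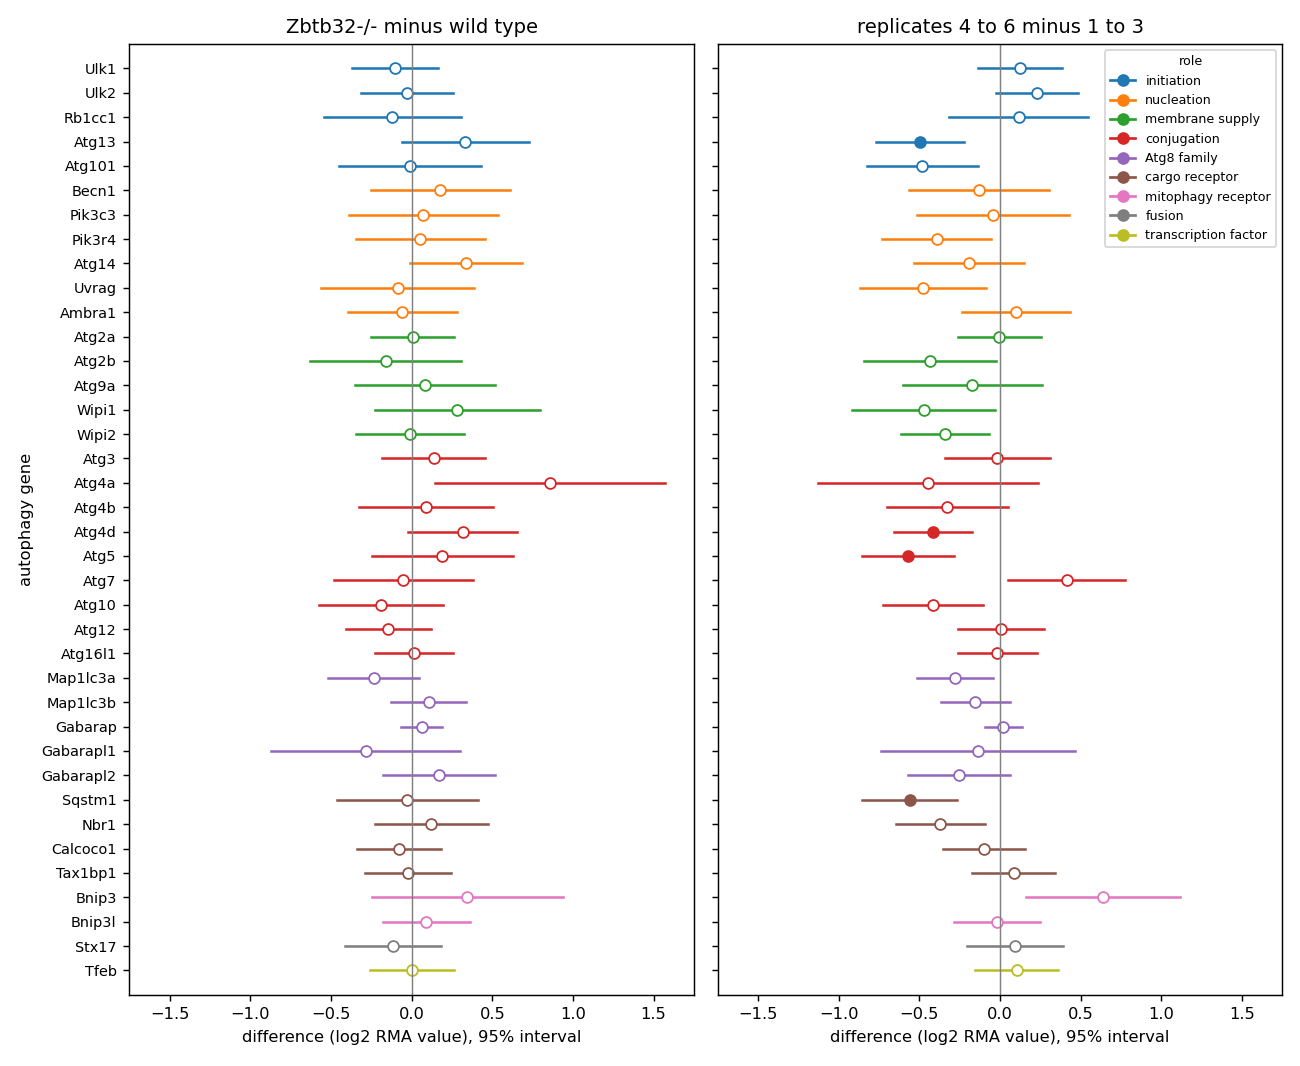
Differences of the 38 tested autophagy genes on the log2 scale (x axes) with 95% limma intervals, ordered and coloured by role, for Zbtb32-/- minus wild type (left) and replicates 4 to 6 minus 1 to 3 (right), filled where the adjusted p is under 0.05. No point on the left is filled, and the 4 filled points on the right, Atg13, Atg4d, Atg5 and Sqstm1, lie below 0.

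Among the 5 genes of the initiation complex, 1 had a higher mean in Zbtb32-/- and 4 a lower one. Atg13, the subunit that links the kinase to its scaffold, ran from 8.67 through a median of 9.30 to 9.70 in wild type and from 9.42 through 9.51 to 9.74 in Zbtb32-/-. The 3 lowest arrays were wild type replicates 4, 5 and 6, and the genotypes overlapped. The difference was 0.33 (SE 0.18, limma adjusted p = 0.933, exact permutation p = 0.136). Ulk1, the kinase, differed by -0.10 (95% interval -0.37 to 0.16), its paralog Ulk2 by -0.03, the scaffold Rb1cc1 (FIP200) by -0.12 and the Atg13 partner Atg101 by -0.01.

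The 6 genes of the nucleation complex gave 4 positive and 2 negative differences. Atg14, the subunit that directs the lipid kinase to the phagophore, ran from 4.94 through a median of 5.29 to 5.82 in wild type and from 5.23 through 5.75 to 5.90 in Zbtb32-/-. Its lowest arrays were wild type replicates 4 and 6, and the groups overlapped over most of their range. The difference was 0.34 (SE 0.16, limma adjusted p = 0.933, exact permutation p = 0.106). The mean of Atg14 was 5.35 in wild type, under the filter of 5.49, and 5.68 in Zbtb32-/-, above it. Atg14 thus entered the test through the group where it is higher, and its difference is not taken as support for a change. Uvrag, the alternative subunit of the later endosomal complex, had medians of 8.94 in wild type and 8.77 in Zbtb32-/-. Its highest values were 9.06 and 8.94, and wild type replicate 4 and Zbtb32-/- replicate 6 lay lowest, the latter at 7.88, so that the groups overlapped. The other members were Becn1, the scaffold, at 0.18, the catalytic subunit Pik3c3 at 0.07, its regulator Pik3r4 at 0.05 and Ambra1, a Becn1 partner, at -0.06.

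For membrane supply, 3 of 5 differences were positive. Wipi1, which binds the lipid that the kinase makes, ran from 7.64 through a median of 8.31 to 8.98 in wild type and from 8.15 through 8.66 to 9.21 in Zbtb32-/-. These ranges overlapped from 8.15 to 8.98, with a difference of 0.28 (SE 0.24). Its paralog Wipi2, which recruits the conjugation machinery, ran from 8.10 through 8.54 to 8.87 and from 8.15 through 8.59 to 8.75, a difference of -0.01 (95% interval -0.35 to 0.33). The lipid transfer proteins Atg2a and Atg2b differed by 0.01 and -0.16, and the scramblase Atg9a by 0.08.

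The conjugation genes held the largest difference of the 38. Atg4a, a protease that trims Atg8 proteins before they are attached and frees them again, was 8.78, 7.53, 8.58, 7.17, 8.63 and 6.60 in wild type replicates 1 to 6. In Zbtb32-/- it was 8.73, 8.88, 8.69, 8.53, 8.74 and 8.85. Wild type replicates 2, 4 and 6 lay below every other array, while wild type replicates 1, 3 and 5 lay within the range of Zbtb32-/-.

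The means of Atg4a were 7.88 ± 0.91 (SD, n = 6) and 8.74 ± 0.12 (SD, n = 6), a difference of 0.86 (SE 0.33, 95% interval 0.14 to 1.57) or 1.81-fold. It had an unadjusted limma p of 0.022 and an exact permutation p of 0.0346, but an adjusted p of 0.933 over all genes. Within replicates 1 to 3 the difference was 0.47 and within replicates 4 to 6 it was 1.24. It was 0.45 without wild type replicates 2 and 6, and between 0.60 and 1.04 when single arrays were left out. Wild type replicates 2, 4 and 6 also had the lowest mean correlations with the other arrays, at 0.933, 0.945 and 0.938, against 0.947 to 0.962 for the rest. Their plasma cell marker means were 11.12, 10.46 and 10.77, and their neutrophil marker means were 7.95, the lowest of the 12 arrays, 11.29 and 10.58. With a covariate of neutrophil, monocyte and macrophage, erythroid, and T and NK cell markers, the Atg4a difference was 0.86 (unadjusted limma p of 0.0256). It was 0.76 with an erythroid covariate (unadjusted limma p of 0.0509) and 0.67 with array weights (unadjusted limma p of 0.0355). None of the 3 fits passed after adjustment. What lowered Atg4a on wild type replicates 2, 4 and 6 was not tested.

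**Figure D2:**
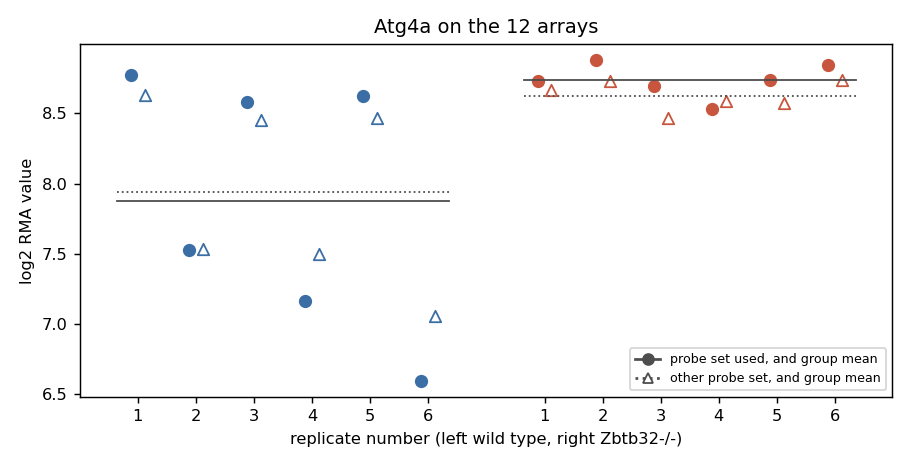
Atg4a on each of the 12 arrays (x axis, replicate numbers by genotype) as the log2 RMA value (y axis) of both of its probe sets, with lines at the group means. On both probe sets wild type replicates 2, 4 and 6 sit lowest, and the 6 Zbtb32-/- arrays sit close together.

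Of the other 8 conjugation genes tested, 5 had a higher mean in Zbtb32-/- and 3 a lower one. Atg5, which forms with Atg12 and Atg16l1 the ligase for Atg8 proteins, ran from 7.95 through a median of 8.63 to 9.07 in wild type and from 8.27 through 8.80 to 9.03 in Zbtb32-/-. The groups overlapped, with a difference of 0.19 (SE 0.20). Atg12 differed by -0.14 and Atg16l1 by 0.02. The E1 enzyme Atg7 differed by -0.05 (95% interval -0.48 to 0.38) and the E2 enzymes Atg3 and Atg10 by 0.14 and -0.19. The remaining Atg4 proteases Atg4b and Atg4d differed by 0.09 and 0.32, the latter with an exact permutation p of 0.0671.

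Among the Atg8 family, 3 of 5 differences were positive. Map1lc3a ran from 7.19 through a median of 7.32 to 7.62 in wild type and from 6.64 through 7.22 to 7.33 in Zbtb32-/-, a difference of -0.24 (SE 0.13, limma adjusted p = 0.933, exact permutation p = 0.0758). The groups overlapped, and the lowest value was that of Zbtb32-/- replicate 4. Gabarapl1 ran from 6.79 through 7.61 to 8.66 in wild type and from 6.88 through 7.43 to 7.96 in Zbtb32-/-, with a difference of -0.29 (SE 0.27). Gabarap, the member with the least spread, was 11.40 ± 0.05 (SD, n = 6) and 11.46 ± 0.04 (SD, n = 6), with an interval of -0.07 to 0.19. Map1lc3b, which encodes the widely used marker LC3B, differed by 0.11 (95% interval -0.13 to 0.34) and Gabarapl2 by 0.17.

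The cargo receptors gave differences near 0. Sqstm1 (p62), which carries ubiquitinated protein to LC3 and is itself degraded, ran from 9.25 through a median of 9.57 to 10.04 in wild type and from 8.96 through 9.75 to 10.08 in Zbtb32-/-. The groups shared almost all of their range, and the difference was -0.03 (95% interval -0.46 to 0.41). Nbr1, a receptor of similar design, ran from 8.16 through 8.70 to 8.99 and from 8.48 through 8.82 to 9.12, a difference of 0.12 (SE 0.16). Calcoco1 and Tax1bp1 differed by -0.08 and -0.02.

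The mitophagy receptor Bnip3, which responds to hypoxia, ran from 5.67 through a median of 6.18 to 7.24 in wild type and from 5.99 through 6.56 to 7.52 in Zbtb32-/-. Its groups overlapped with a difference of 0.35 (SE 0.28), and its paralog Bnip3l, which clears mitochondria from maturing red cells, differed by 0.09. Stx17, the SNARE of the finished autophagosome, ran from 7.14 through 7.34 to 7.63 and from 6.86 through 7.20 to 7.70, a difference of -0.12 (SE 0.14). Tfeb, the transcription factor of lysosomal and autophagy genes, ran from 6.97 through 7.14 to 7.40 and from 6.86 through 7.20 to 7.51. It differed by 0.001, with a 95% interval from -0.26 to 0.26.

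The second comparison was between arrays of different replicate numbers. Earlier results of these data had shown that the arrays numbered 4 to 6 stood apart from those numbered 1 to 3. The labels name no batch, and each set holds 3 arrays of each genotype. Since the split was chosen from these same data, p-values between the sets, here and below, describe the arrays. They are not independent support for a difference. With genotype in the fit, 4 of 38 members fell in replicates 4 to 6 (10.5%, beside 4.47% of all genes) and none rose (beside 2.05%). The 4 were Atg5, Sqstm1, Atg13 and Atg4d. Of all members, 27 of 38 had a negative difference and 11 a positive one, where 38.8% of all genes were positive. The median was -0.15 over the members against -0.06 over all genes. At an unadjusted p under 0.05 limma called 13 members lower, beside 17.8% of all genes, and 2 higher, beside 8.04%, the 2 being Atg7 at 0.41 and Bnip3 at 0.64. With each array centred on its median, the same 4 members passed, and the calls over all genes went from 670 lower and 307 higher to 1015 lower and 269 higher.

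Atg5 ran from 8.81 through a median of 8.97 to 9.07 in replicates 1 to 3 and from 7.95 through 8.36 to 8.74 in replicates 4 to 6. Every array of the later numbers lay below every array of the earlier ones, a pattern seen for 2 members, Atg5 and Atg13, and for 2.86% of all genes. The difference was -0.57 (SE 0.13, limma adjusted p = 0.0281), so that the earlier set was 1.49-fold higher. It was -0.74 within wild type and -0.41 within Zbtb32-/-.

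Sqstm1 ran from 9.61 to 10.08 in replicates 1 to 3, with all but the lowest at 9.84 or above, and from 8.96 through 9.39 to 9.67 in replicates 4 to 6. The sets overlapped only between wild type replicate 2 and Zbtb32-/- replicate 5. The difference was -0.56 (SE 0.14, limma adjusted p = 0.0328), -0.47 within wild type and -0.65 within Zbtb32-/-.

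Atg13 ran from 9.54 through 9.62 to 9.74 in replicates 1 to 3 and from 8.67 through 9.24 to 9.46 in replicates 4 to 6, without overlap. The difference was -0.50 (SE 0.13, limma adjusted p = 0.038). Atg4d ran from 7.54 through 7.64 to 7.79 and from 6.94 through 7.12 to 7.74, a difference of -0.42 (SE 0.11, limma adjusted p = 0.0435). In both genes the wild type arrays of replicates 4 to 6 were the lowest of the series. Within wild type Atg13 and Atg4d differed by -0.78 and -0.57, and within Zbtb32-/- by -0.21 and -0.27.

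**Figure D3:**
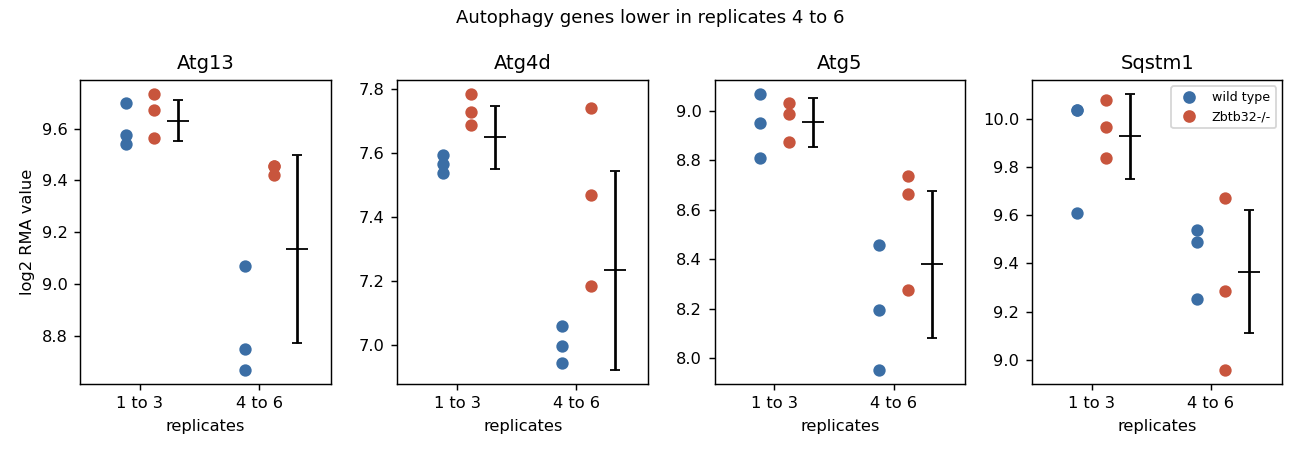
Log2 RMA values (y axes) of the 4 autophagy genes that passed between the replicate sets (x axes), 1 point per array, with the mean and SD of the 6 arrays of a set in black. In Atg13 and Atg5 all points of replicates 4 to 6 lie below those of replicates 1 to 3, and in Atg13 and Atg4d the wild type points of replicates 4 to 6 lie lowest.

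These calls were close to the threshold. Leaving out 1 wild type array left 0 members called for replicates 1, 3 and 4, 1 for replicate 5, and 2 for replicates 2 and 6. Leaving out 1 Zbtb32-/- array left 0 for replicates 3 and 6, 1 for replicates 1 and 2, 4 for replicate 4 and 5 for replicate 5. Over the single arrays left out, the difference stayed between -0.63 and -0.50 for Atg5, -0.63 and -0.47 for Sqstm1, -0.55 and -0.43 for Atg13, and -0.49 and -0.37 for Atg4d.

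The markers of cell types also moved between the sets. The mean of 9 plasma cell markers ran from 10.998 to 11.266 in replicates 1 to 3 and from 10.45 to 10.95 in replicates 4 to 6, a difference of -0.40 with 9 of 9 lower. The mean of 10 neutrophil markers differed by 1.28 with 10 of 10 higher, running from 7.95 to 10.96 and from 10.09 to 12.45. The 8 measured monocyte and macrophage markers differed by 0.83 with 8 of 8 higher, running from 6.61 to 7.65 and from 7.04 to 8.59. B cell markers differed by 0.54 (6 of 8 higher), and stromal, endothelial and megakaryocyte markers by 0.60 (8 of 9 higher).

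Erythroid markers differed by -0.22 (8 of 9 lower), T and NK cell markers by 0.18 (5 of 8 higher), and basophil and mast cell markers by 0.36 (4 of 5 higher). No measured gene of the plasma cell, neutrophil, monocyte and macrophage, B cell and erythroid lists lay below the filter. Lepr and Ppbp of the stromal list did, as did Ncr1 and Klrb1c of the T and NK cell list. So did 3 of the 5 basophil and mast cell genes, Cpa3, Ms4a2 and Fcer1a. The mean of that list was highest on wild type replicate 4, at 6.19, followed by 5.01 on wild type replicate 6. A covariate for other cells was made from the neutrophil, monocyte and macrophage, erythroid, and T and NK cell lists. It did not hold the B cell, stromal or basophil lists. With this covariate in the fit, no member passed between the sets, beside 25 genes in all, against 977 without it. The differences in that fit were -0.72 for Sqstm1, -0.48 for Atg5, -0.46 for Atg13 and -0.32 for Atg4d, with adjusted p-values from 0.0705 to 0.238. Marker means also differed between Zbtb32-/- and wild type. Neutrophil markers differed by 0.42 (10 of 10 higher in Zbtb32-/-), erythroid by 0.24 (8 of 9) and plasma cell by 0.03 (5 of 9). B cell markers differed by -0.22 (2 of 8 higher), monocyte and macrophage by -0.05 (2 of 8) and stromal by -0.07 (2 of 9). T and NK cell markers differed by -0.24 (0 of 8 higher) and basophil by -0.31 (0 of 5).

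**Figure D4:**
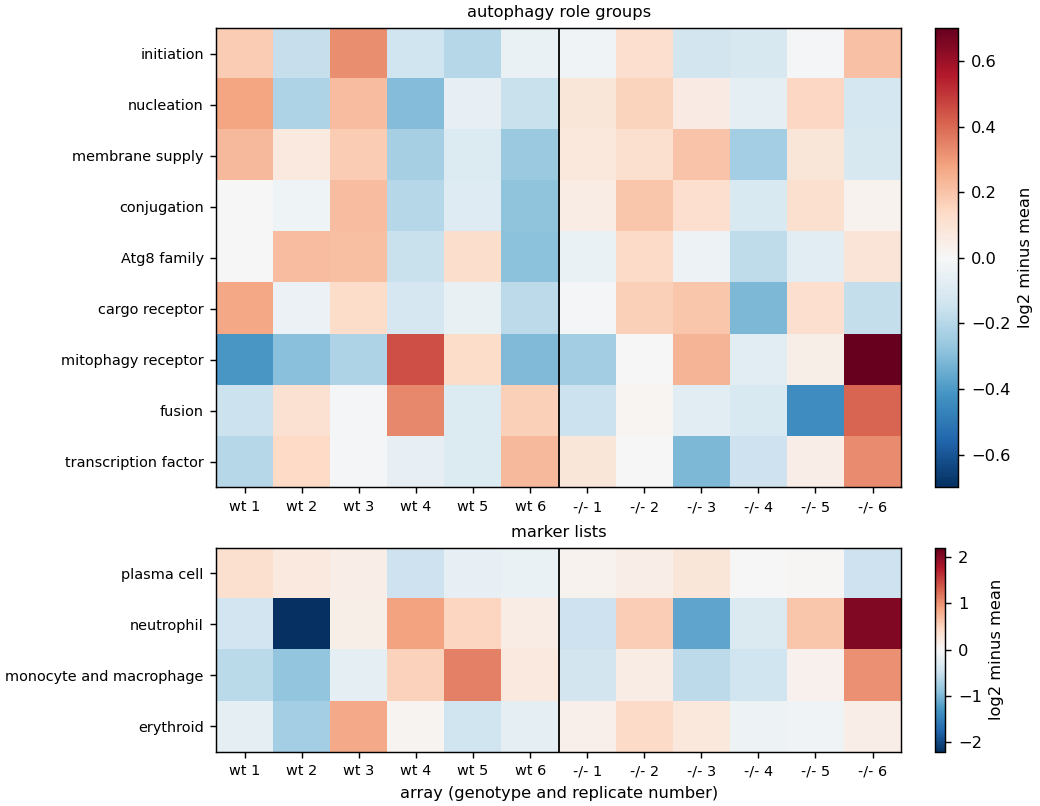
Mean log2 value of each autophagy role group (top) and of 4 marker lists (bottom) on each array (x axis), as the difference from the mean over the 12 arrays (colour, with a separate scale for each panel). Neutrophil markers are lowest on wild type replicate 2 and highest on Zbtb32-/- replicate 6, where the mitophagy receptors, Bnip3 and Bnip3l, are also highest. Bnip3l was highest on that array on both of its probe sets. The other probe set of Bnip3, not shown, was highest on wild type replicate 4 at 6.50, with 6.19 on Zbtb32-/- replicate 6.

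By role, the set difference was negative for 5 of 5 membrane supply genes, 7 of 9 conjugation genes, 5 of 6 nucleation genes, 4 of 5 Atg8 genes, 3 of 4 cargo receptors and 2 of 5 initiation genes. Over all genes the set difference was positive for 38.8%, so that most genes of the array were also lower. The median was -0.34 for membrane supply, -0.33 for conjugation and 0.12 for initiation, against -0.06 over all genes. Within initiation, Atg13 and Atg101 differed by -0.50 and -0.48, while Ulk1, Ulk2 and Rb1cc1 differed by 0.12, 0.23 and 0.12. Of these 5, only Atg13 passed the test.

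The genotype difference itself was compared between the sets. The test of this interaction gave an unadjusted limma p under 0.05 for 3 members, beside 3.86% of all genes, and none passed after adjustment, with a smallest adjusted p of 0.998 over the members. For Atg13 the genotype difference was 0.05 within replicates 1 to 3 and 0.61 within replicates 4 to 6 (limma interaction p 0.0182 before adjustment). For Atg14, whose wild type mean lay under the filter, the values were -0.01 and 0.69 (limma interaction p 0.0188 before adjustment). For Atg9a they were -0.31 and 0.48 (limma interaction p 0.0422 before adjustment).

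Each member was then set against the means of 4 marker lists over the 12 arrays, which share their sort and normalization, giving 152 relations. The permutations took all 12 arrays together and did not keep the replicate sets apart, although marker means and members differed between the sets. After Benjamini-Hochberg adjustment of permutation p-values 7 passed by Pearson's r, and 2 of them passed also by Spearman's rho. Both of these were Atg7. Its level followed the monocyte and macrophage markers at r = 0.81 (adjusted permutation p = 0.043) and rho = 0.89 (adjusted p = 0.0446), and the neutrophil markers at r = 0.79 (adjusted permutation p = 0.043) and rho = 0.85 (adjusted p = 0.0446). Without the 2 arrays farthest from the median marker level r was 0.88 and 0.78. Within the replicate sets 1 to 3 and 4 to 6, r was 0.78 and 0.67 for the first list and 0.69 and 0.88 for the second.

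Atg7 ran against the plasma cell markers, at r = -0.92 (permutation p = 8e-05, adjusted 0.0122) and rho = -0.81 (adjusted permutation p = 0.0738). The relation was -0.77 without Zbtb32-/- replicate 6 and wild type replicate 4, -0.96 within wild type and -0.93 within Zbtb32-/-. Within replicates 1 to 3 it was -0.75 and within replicates 4 to 6 it was -0.93. Atg7 was highest on those 2 arrays, at 9.22 and 9.02, which also had the lowest plasma cell marker means of 10.45 and 10.46. Ulk2, an initiation kinase, followed the neutrophil markers at r = 0.81 (adjusted permutation p = 0.043) and rho = 0.79 (adjusted p = 0.0738). This was 0.74 without wild type replicate 2 and Zbtb32-/- replicate 6, and 0.68 and 0.76 within the sets.

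Atg5, Atg4d and Uvrag followed the plasma cell markers over all arrays by Pearson's r, but not within replicates 1 to 3. Atg5 had r = 0.82 (adjusted permutation p = 0.043) and rho = 0.80 (adjusted p = 0.0738), with -0.31 within replicates 1 to 3 and 0.61 within 4 to 6. Atg4d had r = 0.81 (adjusted permutation p = 0.043) and rho = 0.66 (adjusted p = 0.298), with -0.30 and 0.70 within the sets. Uvrag had r = 0.86 (adjusted permutation p = 0.043) and rho = 0.68 (adjusted p = 0.252), with 0.10 and 0.84. Without Zbtb32-/- replicate 6 and wild type replicate 4, r was 0.77 for Atg5 and 0.74 for Atg4d, while for Uvrag it was 0.52, so that its relation rested on those arrays.

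Nbr1 passed by rank alone against plasma cell markers (rho = 0.87, adjusted permutation p = 0.0446, against r = 0.71, adjusted p = 0.117), with r = 0.90 without the same 2 arrays and 0.79 and 0.21 within the sets. None of the 38 members passed against erythroid markers by either coefficient. Bnip3l, known for its part in red cell maturation, had r = 0.22 (adjusted permutation p = 0.717) and rho = 0.41 (adjusted p = 0.5) there.

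**Figure D5:**
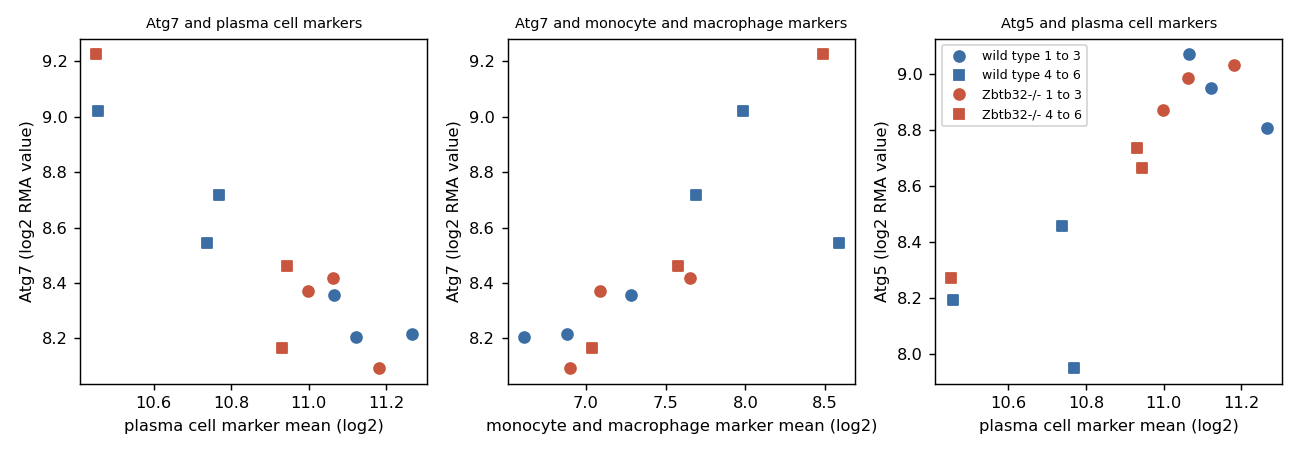
Atg7 against the plasma cell and the monocyte and macrophage marker means, and Atg5 against the plasma cell marker mean, all as log2 values, 1 point per array with colour for genotype and shape for the replicate set. Atg7 falls along the plasma cell axis in both sets, while Atg5 shows no such slope within replicates 1 to 3.

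In 6 members the array has 2 probe sets that name the gene, and the one with the higher mean was used. For Atg4a, Bnip3, Bnip3l, Gabarapl2 and Map1lc3b the identifier of that probe set falls among those of genes on another chromosome (10 of 10 neighbours), for instance chromosome 3 for the X-linked Atg4a. This was so for none of the 33 members with 1 probe set, and 96.9% of 21766 single-gene probe sets lay among neighbours from their own chromosome. These 5 values are uncertain to that extent, because a near-identical copy of a gene elsewhere in the genome can share its probes, which was not tested.

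The probe sets of Atg4a correlated at r = 0.99 over the 12 arrays, and the other one, whose neighbours lie on X, gave a difference of 0.69 (exact permutation p = 0.0173, limma adjusted p = 0.933). Those of Bnip3l and Map1lc3b correlated at 0.97 and 0.94. Those of Gabarapl2, Atg2b and Bnip3 correlated at only 0.61, 0.57 and 0.51. For Bnip3 the set difference was 0.64 on the probe set used and 0.09 on the other, whose neighbours lie on the gene's own chromosome 7. For Gabarapl2 the genotype difference was 0.17 and 0.57. For Atg2b it was -0.16 on the probe set used and 0.06 on the other, and the set difference was -0.43 (unadjusted limma p of 0.0392, adjusted p = 0.168) and -0.11 (unadjusted limma p of 0.423, adjusted p = 0.638).

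The genes around the core machinery were taken from 5 lists, of which 74 of 80 genes were tested. None passed between the genotypes, beside 0% of all genes, and 45 of 74 were positive, beside 52.9% of all genes. Only 2 of the 74 had an unadjusted limma p under 0.05, beside 4.28% of all genes. These were Vmp1, a scramblase of the endoplasmic reticulum, at 0.45 (SE 0.20, limma adjusted p = 0.933), and Sec62, a receptor for autophagy of that organelle, at 0.33 (SE 0.15, limma adjusted p = 0.933). The other genes of smallest p in their lists were Plekhm1 and Rubcn at -0.27 and -0.21 among fusion genes, Neu1 and Atp6v0d1 at 0.30 and 0.18 among lysosomal genes, C9orf72 at 0.38 among other phagophore genes, Atl3 at 0.50 among receptors, and Prkab1 and Mlst8 at 0.27 and 0.33 among genes of AMPK and mTORC1 control.

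Between the replicate sets 6 of the 74 fell in replicates 4 to 6, beside 4.47% of all genes, and none rose, beside 2.05%. Among 21 lysosomal genes these were the protease Ctss at -0.43 and the proton pump subunit Atp6v1h at -0.63. Among 15 other phagophore genes they were Wdr45, a relative of the WIPI proteins, at -0.59 and Trp53inp1, which binds LC3, at -0.79. Pink1, the kinase that marks damaged mitochondria, differed by -0.46 (1 of 11 receptors), and Tsc2, the brake on mTORC1, by -0.45 (1 of 13). None of the 14 fusion genes passed. The limma adjusted p-values of the 6 ran from 0.0254 for Wdr45 to 0.0449 for Atp6v1h.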

How the data were processed

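The deposited table holds log2 values, 1 column per array; per the submitters' processing notes the authors used RMA in Affymetrix Expression Console, with no version given. The deposited log2 values were used as they stand, and no column was left unmapped. The members and lists, and the split into replicates 1 to 3 and 4 to 6, were chosen with earlier results of these data known. Of 35556 probe sets, 21789 name 1 gene, 1621 several and 12146 none, and 21698 of the first had an Entrez match. A gene was its single-gene probe set of highest mean, and genes whose mean was under the 25th percentile (5.49) were left out.

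Genotypes, replicate sets and their interaction were fitted with limma 3.58.1 (lmFit, eBayes with a trend) in R 4.3.3, with Benjamini-Hochberg adjustment over 14993 genes and a threshold of 0.05. Single genes were also tested by a two-sided exact permutation of 924 assignments, whose smallest p is 0.0022. Correlations used 100000 permutations, two-sided. On simulated data for the genotype comparison, 14993 genes of which 200 changed, limma recovered 31.8% of changes of 0.5, 75.4% of 1 and 100% of 2 on the log2 scale. Of its 144 calls, 6 were false. The simulated noise was independent for each gene and array, without shifts shared by many genes of an array. These rates therefore need not hold for the real arrays. In each role the values over arrays are described for the genes with the smallest genotype p, the smallest replicate set p and the largest SD, and in each pathway list the 2 genes with the smallest genotype p and those that passed are named. Tests used 12 arrays, whose number limits the precision. Alternatives changed the normalization, filter, probe set rule, limma settings, blocks, covariates and arrays.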

Additional observations from a re-analysis of the deposited data

Results flagged for a closer look

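In 76 groups of 6 arrays (38 members in both genotypes), 5 held an array whose gap to its nearest neighbour was large against the group's range, where chance gives about 1 in 20. Uvrag was 7.88 on Zbtb32-/- replicate 6, with the nearest array of that genotype at 8.61. Atg7 was 9.22 on the same array, with the nearest at 8.46. Map1lc3a was 6.64 on Zbtb32-/- replicate 4, with the nearest at 7.08. Map1lc3b was 11.48 on Zbtb32-/- replicate 2, with the nearest at 11.24. Atg3 was 9.18 on wild type replicate 3, with the nearest at 8.63.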

How the results depend on the processing

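Between the genotypes, no member passed under any of the 29 alternatives run, and over all genes none passed except 1 gene within replicates 4 to 6. The members' median difference ran from -0.01 to 0.07. In 21 of 38 members the sign of the uncalled difference changed at least once, the largest being Atg14 at 0.34. Between the replicate sets, where 4 members passed, 1 passed after a second quantile normalization and 1 without wild type replicates 2 and 6, 2 with genotype left out of the fit and 2 with an erythroid covariate, and 0 within wild type, within Zbtb32-/- and with the covariate of other-cell markers. Leaving out single arrays gave 0 to 5. Fits within a genotype or without arrays hold fewer samples; the cause of the other changes was not tested. The other 8 alternatives gave 4, which were the same genes except with array weights, where Atg101 stood in place of Atg4d. The alternatives using the other probe set of members with 2, and leaving out Zbtb32-/- replicate 6 and wild type replicate 4, were added after the data had been seen.

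Arrays of the same replicate number deviated together with r from 0.02 to 0.47 (4 of 6 over 0.1), and 2 of 6 wild type arrays correlated best with their own number, so the numbers were not taken as pairs. With replicate number as a block 0 members and 0 genes passed, and 914 genes against 642 had an unadjusted limma p under 0.05. No dim probe rule beyond the filter was available, so low genes such as Atg14 are less certain.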
